A study of Mus musculus with 26 samples.

Results

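The 9 transcript clusters described here stood among those whose counts were raised over total liver RNA in RNA precipitated with an antibody against hnRNPK. They were chosen from such values, in cytoplasmic and nuclear precipitates of 3 mouse groups, so their folds over total RNA are a description and not a test. A cluster is the set of isoforms that share 1 gene number in the deposited isoform tables. It is called here by the transcript identifier uc008sss.1, uc007sus.1, uc007toq.1, uc009dtv.1, uc007qve.1, uc007oxu.1, uc009qai.1, uc012cgd.2 or uc029wdr.1. The tables held 31469 clusters, of which 13516 passed the filter on low counts, and all 9 were among these.

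Livers came from ob/ob mice (B6.V-Lepob/J, on normal diet), from C57BL/6J mice on a high-fat diet, and from C57BL/6J mice on normal diet, called wild type. The labels give no age and leave unsaid whether each replicate was another animal and how many animals entered a library. Immunoprecipitation (IP) of hnRNPK was done in 2 replicates per mouse group in each of 2 extracts, which gives 6 cytoplasmic and 6 nuclear IP libraries. Total RNA of the same mouse groups gave 6 units of 2 summed libraries each. Control IgG was sequenced once per extract, from mixed mice. All IP extracts had first been passed over IgG beads, per the labels' protocols. An IP level over total RNA holds the fractionation as well as the precipitation, because total RNA was not taken from the extracts.

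hnRNPK is an RNA-binding protein with KH domains that favours stretches rich in cytosine. It moves between nucleus and cytoplasm and takes part in splicing, RNA stability and translation. An RNA is recovered by such a precipitation when it is held by the protein or by something that travels with it, and also when it sticks to the beads, which the IgG control gauges. The ob/ob mutation removes leptin, the fat-derived hormone that restrains feeding, and both ob/ob mice and mice on a high-fat diet accumulate fat in the liver. No table used here pairs these transcript identifiers with a gene symbol or a sequence, so no role of a gene is given, and the labelled tissue could not be checked against its markers.

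Total counts were 8834039 to 12068893 per cytoplasmic IP library, 5336063 to 10581097 per nuclear IP library, 338457 in cytoplasmic IgG, 3116781 in nuclear IgG and 64209087 to 80521241 per unit of total RNA. A single cluster outside the 9 took 12.2% to 28.8% of cytoplasmic IP counts and 18.6% to 41.2% of nuclear IP counts. Its share was 17.4% in cytoplasmic IgG, 16.5% in nuclear IgG and 0.926% to 2.78% in total RNA. It was highest in replicate 2 of the high-fat diet in both extracts. The trimmed mean of M values (TMM), which scales libraries on the bulk of their clusters, gave these libraries factors of 0.65 and 0.60, below the 0.81 to 0.91 and 0.87 to 1.05 of the other IP libraries. Levels below are TMM-scaled CPM, counts set to a common library size, unless another scale is named.

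The clusters were mostly short. The named isoforms were 572 to 3513 nucleotides long with a median of 1325, against 2733 for the named isoform of all clusters tested. Only 1 isoform was listed in 6 of the 9, beside 19320 of all 31469 clusters. The exceptions among the 9 were uc007toq.1 with 11 isoforms, uc007sus.1 with 7 and uc029wdr.1 with 3. On the deposited TPM, which are per length and set to a common total, the median of the 9 was 34.4 in cytoplasmic IP, 63.1 in nuclear IP and 2.63 in total RNA, against 4.79, 5.96 and 8.68 over all clusters tested.

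**Figure D1:**
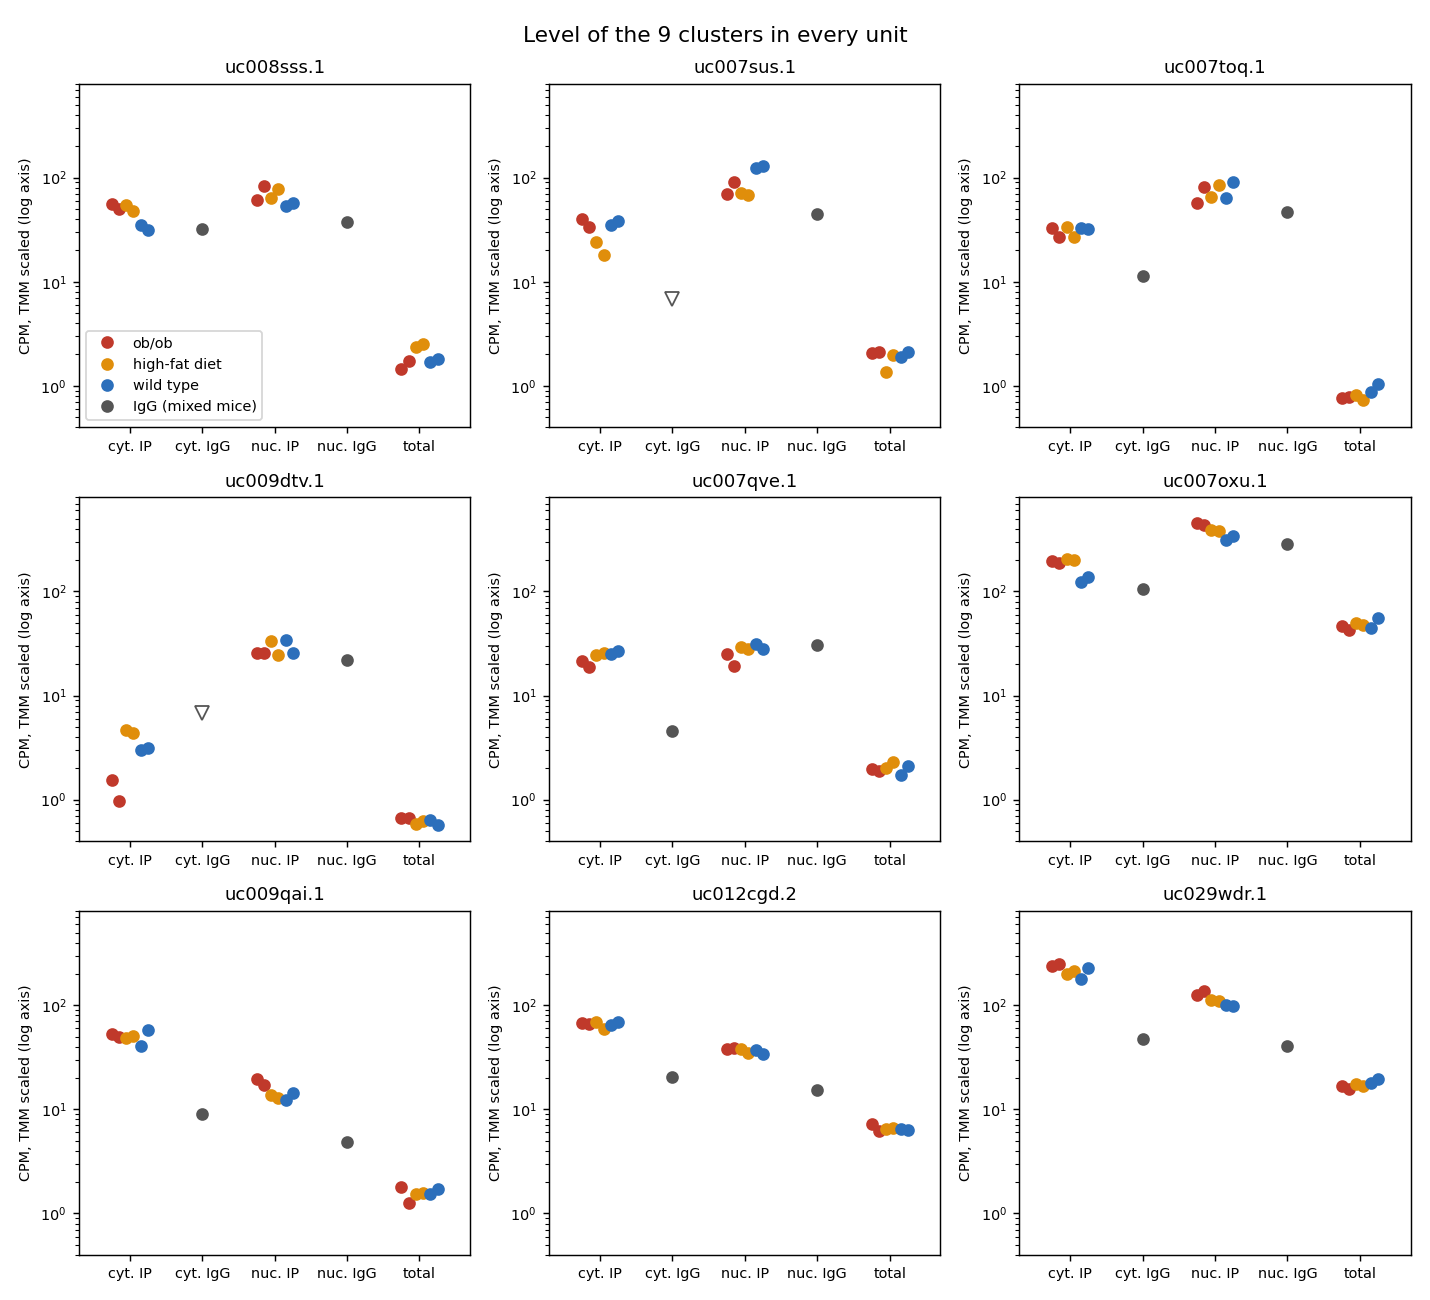
Level of each of the 9 clusters (TMM-scaled CPM, log axis, same range in every panel) in each cytoplasmic (cyt.) and nuclear (nuc.) IP library, each IgG library and each unit of total RNA, with colours for mouse groups. An open triangle marks an IgG library with 0 counts, drawn at the level of 3 counts. In every panel the IP points lie above the total RNA points, while the distance to IgG differs between panels.

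Among the 9, uc007toq.1 had the highest fold over total RNA in both extracts. In cytoplasmic IP it had 32.7 and 26.8 CPM in ob/ob, 33.7 and 27.1 CPM in high-fat and 32.8 and 32.1 CPM in wild-type libraries. In nuclear IP it had 57.0 and 81.3 CPM in ob/ob, 65.7 and 85.0 CPM in high-fat and 63.9 and 91.0 CPM in wild-type libraries, against 0.736 to 1.04 CPM over the units of total RNA. Every nuclear IP library was above every cytoplasmic one, and the mouse groups overlapped in both extracts. Its log2 fold over total RNA of the same mouse group was 5.16 ± 0.16 in cytoplasmic IP and 6.40 ± 0.28 in nuclear IP. Here and below such values are the mean and SD over 6 libraries of 3 mouse groups. These folds ranked 66th and 48th of the 13516 clusters tested, so clusters outside the 9 had larger ones. Statements on overlap of mouse groups, here and below, describe 2 libraries per group without the share over all clusters. Nothing is read from them.

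The other clusters whose nuclear IP libraries all lay above the cytoplasmic ones were uc007sus.1, uc009dtv.1 and uc007oxu.1. For uc007sus.1 the cytoplasmic IP levels were 40.4 and 33.6 CPM in ob/ob, 24.0 and 18.04 CPM in high-fat and 35.2 and 38.2 CPM in wild-type libraries. The nuclear IP levels of uc007sus.1 were 69.7 and 91.2 CPM in ob/ob, 70.8 and 68.2 CPM in high-fat and 124.5 and 131 CPM in wild-type libraries, against 1.35 to 2.11 CPM in total RNA. High-fat libraries were the lowest in the cytoplasm, and wild-type libraries the highest in the nucleus, with no overlap with the other groups in either case. Its log2 fold over total RNA was 3.99 ± 0.31 in cytoplasmic IP and 5.54 ± 0.37 in nuclear IP.

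The cluster uc009dtv.1 was raised steadily in the nucleus only. Its nuclear IP levels were 25.7 and 25.6 CPM in ob/ob, 33.5 and 24.3 CPM in high-fat and 33.8 and 25.9 CPM in wild-type libraries. In cytoplasmic IP uc009dtv.1 had 1.55 and 0.964 CPM in ob/ob, 4.65 and 4.35 CPM in high-fat and 2.98 and 3.13 CPM in wild-type libraries, against 0.567 to 0.673 CPM in total RNA. The 3 mouse groups did not overlap in the cytoplasm, where ob/ob was lowest and high-fat highest, on 9 to 37 counts per library. Its log2 fold over total RNA in cytoplasmic IP was 1.17 and 0.50 in ob/ob, 2.88 and 2.78 in high-fat and 2.26 and 2.32 in wild-type libraries. The SD of these folds was 0.95, against a median SD of 0.37 over all clusters tested, so the name of a consistently raised cluster goes against its cytoplasmic values. In nuclear IP the log2 fold was 5.41 ± 0.26. The lowest of its 12 folds ranked 1382nd of 13516 clusters, where the other members ranked between 40th and 393rd.

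The most abundant of the 9 in total RNA was uc007oxu.1, and it had the smallest mean fold in the cytoplasm. It had 198 and 189 CPM in ob/ob, 207 and 201 CPM in high-fat and 124 and 138 CPM in wild-type cytoplasmic IP libraries. The nuclear IP libraries held 452 and 435 CPM in ob/ob, 386 and 384 CPM in high-fat and 312 and 339 CPM in wild type, against 42.7 to 55.1 CPM in total RNA. Wild-type libraries were the lowest in both extracts, and the 3 groups did not overlap in the nucleus. The log2 fold of uc007oxu.1 was 1.85 ± 0.36 in cytoplasmic IP and 3.00 ± 0.27 in nuclear IP, ranking 1005th and 183rd.

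In uc008sss.1 and uc007qve.1 the extracts overlapped. For uc008sss.1 the cytoplasmic IP levels were 56.0 and 50.0 CPM in ob/ob, 54.7 and 48.2 CPM in high-fat and 35.3 and 31.4 CPM in wild-type libraries. The nuclear IP levels of uc008sss.1 were 61.5 and 83.8 CPM in ob/ob, 63.5 and 78.1 CPM in high-fat and 53.7 and 56.4 CPM in wild-type libraries, against 1.44 to 2.51 CPM in total RNA. Wild type was the lowest group in both extracts, without overlap. Its log2 fold was 4.55 ± 0.39 in cytoplasmic IP and 5.09 ± 0.35 in nuclear IP. The cytoplasmic SD was the 7397th smallest of 13516 clusters and above their median of 0.37, so this cluster was not steadier there than most. Because total RNA of the high-fat group was itself the highest, the fold set ob/ob apart instead, with means of 5.03 in ob/ob, 4.38 in high-fat and 4.23 in wild-type cytoplasmic IP.

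The levels of uc007qve.1 differed between extracts by 0.16 on the log2 scale. They were 21.4 and 18.9 CPM in ob/ob, 24.8 and 25.6 CPM in high-fat and 24.9 and 26.7 CPM in wild-type cytoplasmic IP libraries. In nuclear IP they were 24.9 and 19.1 CPM in ob/ob, 28.95 and 27.7 CPM in high-fat and 31.0 and 28.3 CPM in wild-type libraries, against 1.74 to 2.29 CPM in total RNA. The ob/ob libraries were the lowest in both extracts, without overlap. Its log2 fold was 3.55 ± 0.17 in cytoplasmic IP and 3.71 ± 0.23 in nuclear IP.

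The remaining 3 clusters had every nuclear IP library below every cytoplasmic one. The shortest, uc009qai.1, had 53.3 and 49.5 CPM in ob/ob, 49.0 and 51.2 CPM in high-fat and 40.3 and 57.9 CPM in wild-type cytoplasmic IP libraries. Its nuclear IP libraries held 19.5 and 17.2 CPM in ob/ob, 13.7 and 12.8 CPM in high-fat and 12.3 and 14.3 CPM in wild type, against 1.27 to 1.79 CPM in total RNA. The groups overlapped in the cytoplasm, while ob/ob was the highest in the nucleus without overlap. The log2 fold of uc009qai.1 was 4.97 ± 0.19 in cytoplasmic IP and 3.21 ± 0.30 in nuclear IP, a nuclear minus cytoplasmic difference of -1.76 on the log2 CPM scale.

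The steadiest cluster was uc012cgd.2. Cytoplasmic IP held 67.1 and 65.9 CPM of it in ob/ob, 69.8 and 59.7 CPM in high-fat and 65.3 and 68.9 CPM in wild type. Nuclear IP held 37.9 and 38.8 CPM in ob/ob, 38.3 and 35.2 CPM in high-fat and 37.2 and 34.4 CPM in wild type, against 6.16 to 7.17 CPM in total RNA. The mouse groups overlapped in the cytoplasm, and in the nucleus both ob/ob libraries were slightly above both wild-type ones while high-fat overlapped with each. With a log2 fold of 3.33 ± 0.083 in cytoplasmic IP and 2.49 ± 0.059 in nuclear IP, it had the 39th and the 16th smallest SD of the 13516 clusters.

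The highest cytoplasmic CPM of the 9 was that of uc029wdr.1. Its cytoplasmic IP levels were 240.1 and 248 CPM in ob/ob, 198 and 214 CPM in high-fat and 178 and 227 CPM in wild-type libraries. In nuclear IP it had 124.7 and 137 CPM in ob/ob, 112 and 109 CPM in high-fat and 100.3 and 97.9 CPM in wild-type libraries, against 15.5 to 19.4 CPM in total RNA. In the nucleus the order was ob/ob, high-fat, wild type without overlap, and in the cytoplasm ob/ob was the highest while the other groups overlapped. The log2 fold of uc029wdr.1 was 3.64 ± 0.26 in cytoplasmic IP and 2.70 ± 0.28 in nuclear IP.

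**Figure D2:**
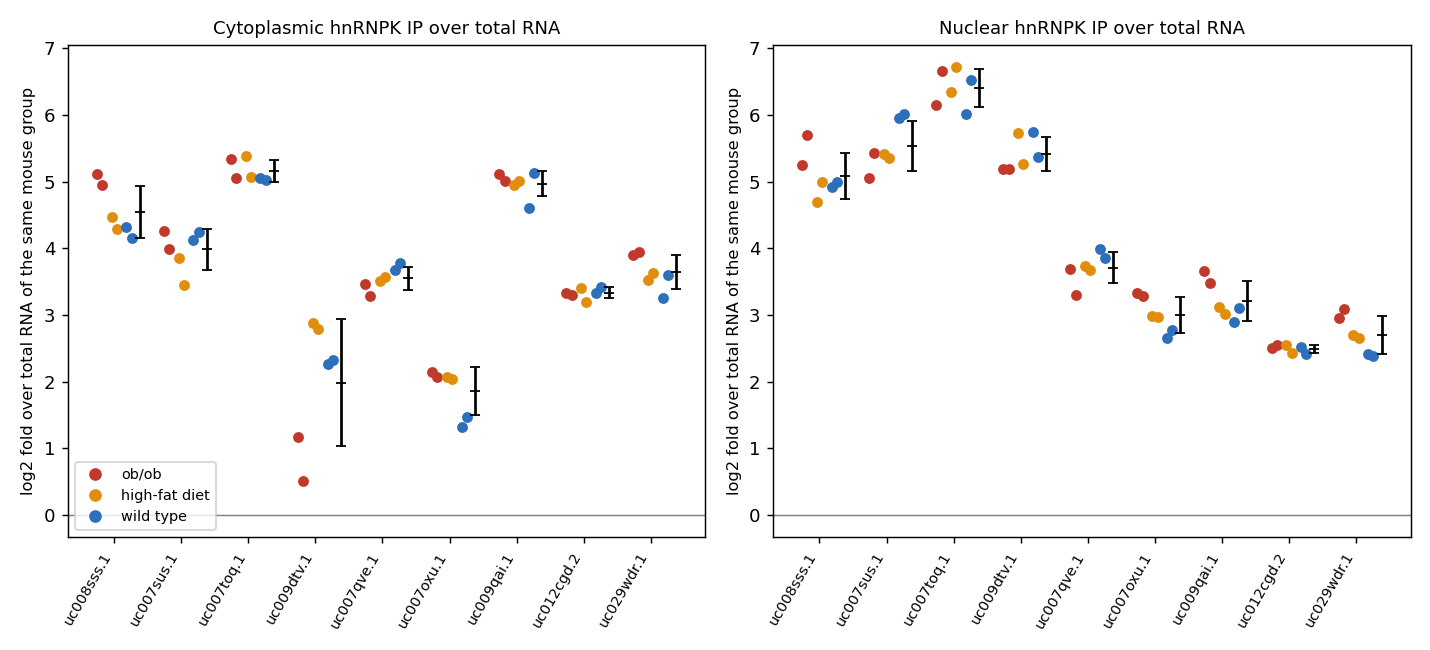
Log2 fold of each cytoplasmic (left) and nuclear (right) IP library over the mean of the total RNA units of its own mouse group, for the 9 clusters. Points are libraries coloured by mouse group, and bars give the mean and SD over 6 libraries. All points are above 0, and those of uc009dtv.1 in the cytoplasm spread from 0.50 to 2.88.

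Over the 9, the median log2 fold was 3.64 in cytoplasmic IP and 3.71 in nuclear IP, against -0.06 and -0.15 over all clusters tested. TMM scales on the bulk of clusters, which holds the medians over all clusters near 0. By library size alone those were -0.63 and -0.59. The shares that follow also rest on TMM. By edgeR's quasi-likelihood test on the whole table, at an adjusted p under 0.05, cytoplasmic IP was above total RNA in 36.0% of clusters and below it in 41.2%, and nuclear IP above it in 32.2% and below it in 42.5%. All 9 were on the higher side in both extracts. A log2 fold above 0 in all 12 IP libraries was found in 19.5% of clusters and in all 9. A log2 fold of at least 1 in all 12 was found in 4.83% of clusters and in 8 of the 9, without uc009dtv.1. A log2 fold of at least 2 in all 12 was found in 1.19% of clusters and in 7 of the 9, without uc009dtv.1 and uc007oxu.1. Since these values chose the members, nothing is read from these counts.

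**Figure D3:**
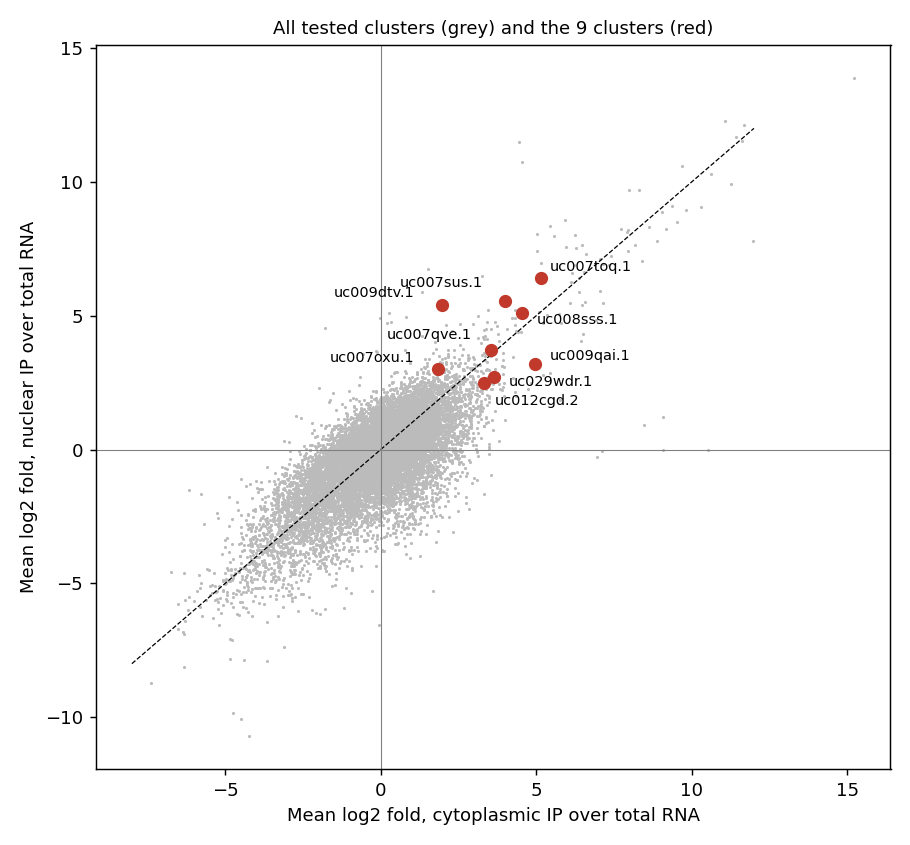
Mean log2 fold over total RNA in nuclear IP (vertical) against that in cytoplasmic IP (horizontal) for the 13516 clusters tested (grey) and the 9 clusters (red). The dashed line marks equal folds. Points of uc007toq.1, uc007sus.1, uc009dtv.1 and uc007oxu.1 lie above it and those of uc009qai.1, uc012cgd.2 and uc029wdr.1 below it, and grey points with larger folds lie farther along the line.

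The members thus differed among themselves in the extract they were recovered from. The nuclear minus cytoplasmic difference on the log2 CPM scale was 3.43 in uc009dtv.1, 1.55 in uc007sus.1, 1.25 in uc007toq.1, 1.14 in uc007oxu.1, 0.54 in uc008sss.1, 0.16 in uc007qve.1, -0.84 in uc012cgd.2, -0.94 in uc029wdr.1 and -1.76 in uc009qai.1. All nuclear IP libraries lay above all cytoplasmic ones in 14.6% of clusters tested and in 4 of the 9, and below them in 18.4% and in 3 of the 9. With scaling by library size alone the shares were 12.2% with 4 of the 9 and 12.9% with 1 of the 9, uc009qai.1. Leaving out replicate 2 of the high-fat diet as well brought the second to 14.9% with 3 of the 9. The single IgG libraries differed between extracts in the same direction. Nuclear against cytoplasmic IgG held 21.7 and 0 CPM of uc009dtv.1, 44.7 and 0 CPM of uc007sus.1, and 47.1 and 11.4 CPM of uc007toq.1. For uc007oxu.1 the levels were 287 and 105 CPM, for uc008sss.1 37.7 and 31.9, and for uc007qve.1 30.9 and 4.55. For uc012cgd.2 they were 15.4 and 20.5 CPM, for uc029wdr.1 41.0 and 47.8, and for uc009qai.1 4.83 and 9.11. Cytoplasmic IgG had few counts, so its levels are uncertain.

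Mouse groups differed in the fold by more than IP replicates in some of the 9 and by less in others. The range of the 3 group means of the fold exceeded the largest difference between the replicates of a group in 6 of the 9 in cytoplasmic IP, beside 44.3% of all clusters, and in 6 of the 9 in nuclear IP, beside 41.3%. The 3 below that mark were uc007toq.1, uc009qai.1 and uc012cgd.2 in the cytoplasm, and uc007toq.1, uc009dtv.1 and uc012cgd.2 in the nucleus. Both replicates of a group were set against the same mean of total RNA. Spread of total RNA thus enters the range of group means but not the difference between replicates, which favours a larger range. With 2 libraries per group this is a description. No share of all clusters whose mouse groups did not overlap in CPM is given here. Overlaps stated for single clusters are therefore descriptions too, and nothing is read from them. The widest ranges were 2.00 in uc009dtv.1 and 0.80 in uc008sss.1 in cytoplasmic IP, and 0.74 in uc007sus.1 in nuclear IP.

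The mean log2 excess over IgG was smaller than the mean log2 fold over total RNA in the 7 clusters with IgG counts in the cytoplasm and in all 9 in the nucleus. The choice of members for a high fold over total RNA favours this order, so nothing is read from it. In the cytoplasm, IgG counts were so few that each level has a wide exact 95% interval, which covers counting error only. In uc007sus.1, uc029wdr.1 and uc009qai.1 all 6 IP libraries lay above the whole interval, with TMM scaling and with scaling by library size alone. IgG held 0 counts of uc007sus.1, with an exact upper limit of 8.40 CPM. A floor of 3 counts in that library is 6.83 CPM. The mean log2 excess of uc007sus.1 in IP was 2.15 against that floor and 1.86 against the upper limit, with TMM scaling. The range in uc029wdr.1 was 178 to 248 CPM in IP, against 47.8 CPM in IgG on 21 counts (29.6 to 73.1). In uc009qai.1 the 6 IP libraries had 40.3 to 57.9 CPM, against 9.11 CPM in IgG on 4 counts (2.48 to 23.3).

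In 3 further clusters all 6 libraries were above the interval with TMM scaling but not by library size alone. IP had 59.7 to 69.8 CPM of uc012cgd.2, against 20.5 CPM in IgG on 9 counts (9.37 to 38.9), and by library size 5 of 6 libraries were above the interval. In uc007qve.1 the IP range was 18.9 to 26.7 CPM, against 4.55 CPM in IgG on 2 counts (0.551 to 16.4). Its mean log2 ratio of 2.36 has a counting interval of 0.52 to 5.42, and by library size 2 of 6 libraries were above the interval. For uc007toq.1 IP had 26.8 to 33.7 CPM, against 11.4 CPM in IgG on 5 counts (3.70 to 26.6), so the lowest IP library stood just above the interval. By library size 0 of its 6 libraries were above it, at 17.6 to 30.3 CPM in IP, against an upper limit of 34.5 CPM in IgG. For uc009dtv.1 IgG also held 0 counts, but all IP libraries were below that floor, so no excess was detectable at this depth.

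The weakest cytoplasmic excess was in uc007oxu.1 and uc008sss.1. In uc007oxu.1 IP had 124 to 207 CPM, against 105 CPM in IgG on 46 counts (76.7 to 140), and the wild-type libraries were within that interval. Cytoplasmic IP had 31.4 to 56.0 CPM of uc008sss.1, against 31.9 CPM in IgG on 14 counts (17.4 to 53.5), and 2 of 6 libraries were above that interval. Their mean log2 excess was 0.72 and 0.49. With scaling by library size alone that of uc008sss.1 turned to -0.17.

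In the nucleus, where IgG was deeper, uc007qve.1 was not above IgG. Its IP libraries had 19.1 to 31.0 CPM, against 30.9 CPM in IgG on 128 counts, a mean log2 difference of -0.23, and 1 of 6 libraries was above IgG. The cluster uc009dtv.1, whose nuclear log2 fold over total RNA was 5.41, had 24.3 to 33.8 CPM in IP, against 21.7 CPM in IgG on 90 counts (17.5 to 26.7). Its mean log2 excess over IgG was 0.36, and 2 of 6 libraries were above the interval. The mean log2 excess was 1.60 in uc009qai.1, 1.46 in uc029wdr.1, 1.25 in uc012cgd.2, 1.00 in uc007sus.1, 0.79 in uc008sss.1, 0.63 in uc007toq.1 and 0.41 in uc007oxu.1. The 3 clusters with the largest nuclear excess were those recovered more from the cytoplasm. For uc007toq.1, with the largest fold over total RNA, nuclear IP had 57.0 to 91.0 CPM, against 47.1 CPM in IgG and 0.736 to 1.04 CPM in total RNA.

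**Figure D4:**
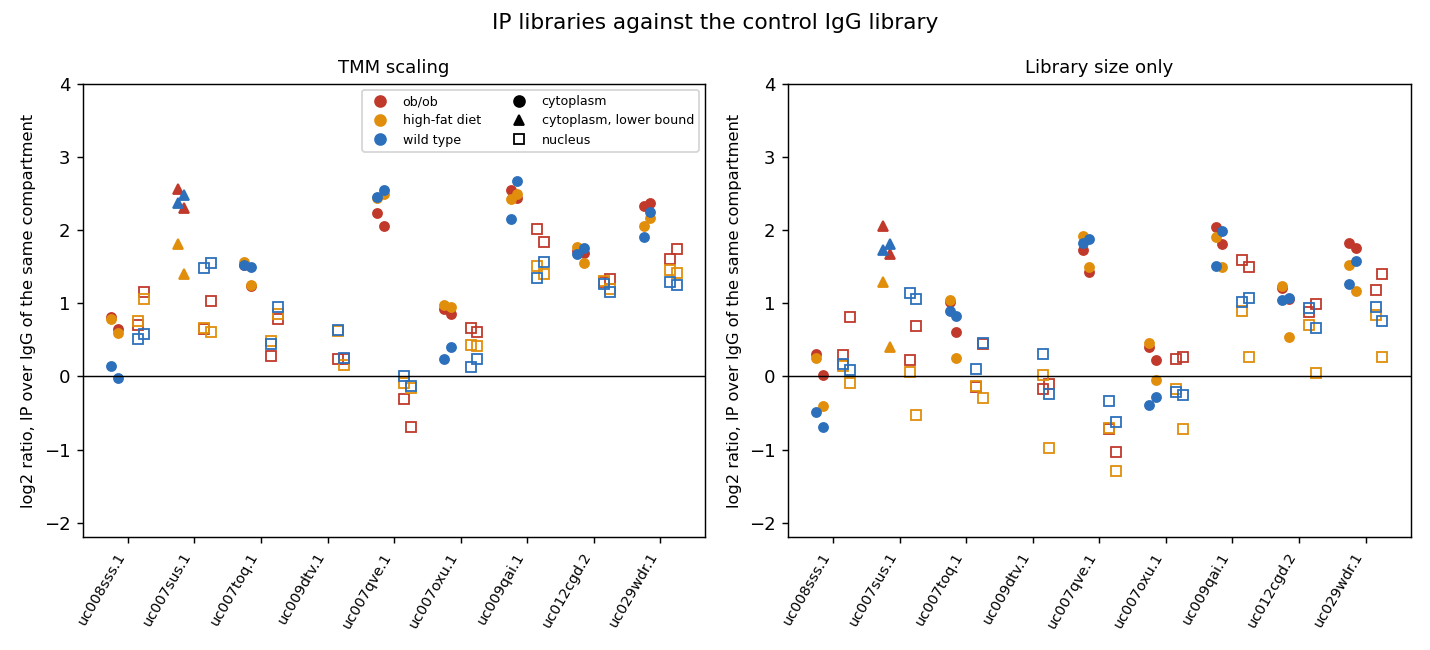
Log2 ratio of each IP library to the IgG library of the same extract, with TMM scaling (left) and with scaling by library size only (right), for the 9 clusters. Filled symbols are cytoplasmic and open squares nuclear libraries. Triangles, labelled as lower bounds, are ratios to a floor of 3 IgG counts. The cluster uc009dtv.1 has no cytoplasmic value because its IP levels were below that floor. On the right all values are lower, and in the nucleus 3 clusters, uc009qai.1, uc012cgd.2 and uc029wdr.1, stay above 0 in all 6 libraries.

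All 6 cytoplasmic IP libraries were above IgG in 44.6% of clusters tested and in 8 of the 9, without uc008sss.1. One of these 8 is uc009dtv.1, for which IgG had 0 counts. All 6 nuclear IP libraries were above IgG in 23.1% of clusters and in 8 of the 9, without uc007qve.1. Scaled by library size alone, the shares were 29.1% with 7 of the 9 in the cytoplasm and 3.72% with 3 of the 9 in the nucleus. Leaving out replicate 2 of the high-fat diet as well, they were 9.36% with 5 of the 9 in the nucleus. All 6 libraries were above the upper limit of the IgG interval in 10.7% of clusters with 6 of the 9 in the cytoplasm, and in 10.4% with 7 of the 9 in the nucleus. By library size alone these were 3.38% with 3 of the 9 in the cytoplasm and 0.525% with 1 of the 9, uc029wdr.1, in the nucleus. The change of scaling moved the median log2 excess of all clusters by -0.66 in the cytoplasm and by -0.55 in the nucleus. Relative to that median, 8 of the 9 were above it in each extract under both scalings, the exceptions being uc009dtv.1, set at the floor, in the cytoplasm and uc007qve.1 in the nucleus. The median log2 excess of the 9 was 1.69 in the cytoplasm, against -0.20 over all clusters, and 0.79 in the nucleus, against -0.07 over all clusters. In these medians any cluster with 0 IgG counts was set against the floor of 3 counts, which is 6.83 CPM in the cytoplasm. Clusters with few IP counts then take negative values, as uc009dtv.1 did at -1.42. The depth of IgG thus enters the medians over all clusters. There was 1 IgG library per extract, so how far IgG libraries vary was not tested. The members were chosen for high levels over total RNA in these same IP libraries, which also favours a high ratio to IgG. Nothing is therefore read from the counts and medians of the 9 set beside those of all clusters.

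In the 3 clusters with several isoforms, the counts in IP sat almost wholly on the named isoform. In uc029wdr.1 the isoform of that name, 1010 nucleotides long, held 93.97% and 92.24% of the cluster in ob/ob, 92.39% and 96.44% in high-fat and 94.85% and 98.17% in wild-type cytoplasmic IP. In total RNA it held 2.03% and 5.63% in ob/ob, 2.46% and 3.73% in high-fat and 3.99% and 2.09% in wild type. The leading isoform in total RNA was uc009ffd.2, of 1295 nucleotides, with 81.9% ± 2.1 (SD, n = 6) of the cluster, and the remaining isoform uc012ezf.2 held 14.8% ± 2.3. In nuclear IP the share of uc029wdr.1 was 99.1% ± 0.61. The level of the other isoforms together was 11.6 ± 5.6 CPM in cytoplasmic IP and 1.02 ± 0.65 CPM in nuclear IP, against 16.8 ± 1.5 CPM in total RNA. The raised sum of this cluster was thus that of 1 isoform, at 206 CPM in cytoplasmic IP and 112 CPM in nuclear IP, against 0.568 CPM in total RNA.

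The named isoform also took a larger share in IP in uc007toq.1. The isoform uc007toq.1, of 1729 nucleotides, held 99.7% ± 0.35 of the cluster in cytoplasmic IP and 99.4% ± 1.3 in nuclear IP, against 18.9% ± 9.3 in total RNA (SD, n = 6 each). In total RNA, where the cluster had 456 counts over all units, its share ran from 7.01% to 33.28%. There uc007top.1, of 4723 nucleotides, held 20.3% ± 4.1 and uc011zkl.1 held 15.3% ± 16.2, so the isoforms overlapped and which of them led in total RNA was not resolved. In uc007sus.1 the named isoform led in all materials, with 99.0% ± 1.1 in cytoplasmic IP and 99.9% ± 0.35 in nuclear IP, against 72.0% ± 2.2 in total RNA. RSEM divides reads among isoforms by estimate, so shares of isoforms that overlap are uncertain.

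The named isoform held most counts in IgG too. In nuclear IgG the named isoform held 96.8% of uc029wdr.1 (exact 95% interval 93.3% to 99.0%), 91.2% of uc007toq.1 (86.4% to 94.8%) and 100% of uc007sus.1 (98.03% to 100%). In cytoplasmic IgG it held all 21 counts of uc029wdr.1 (83.9% to 100%) and all 5 counts of uc007toq.1 (47.8% to 100%). The leading isoform of uc029wdr.1 was thus another one than in total RNA with IgG as with the hnRNPK antibody.

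**Figure D5:**
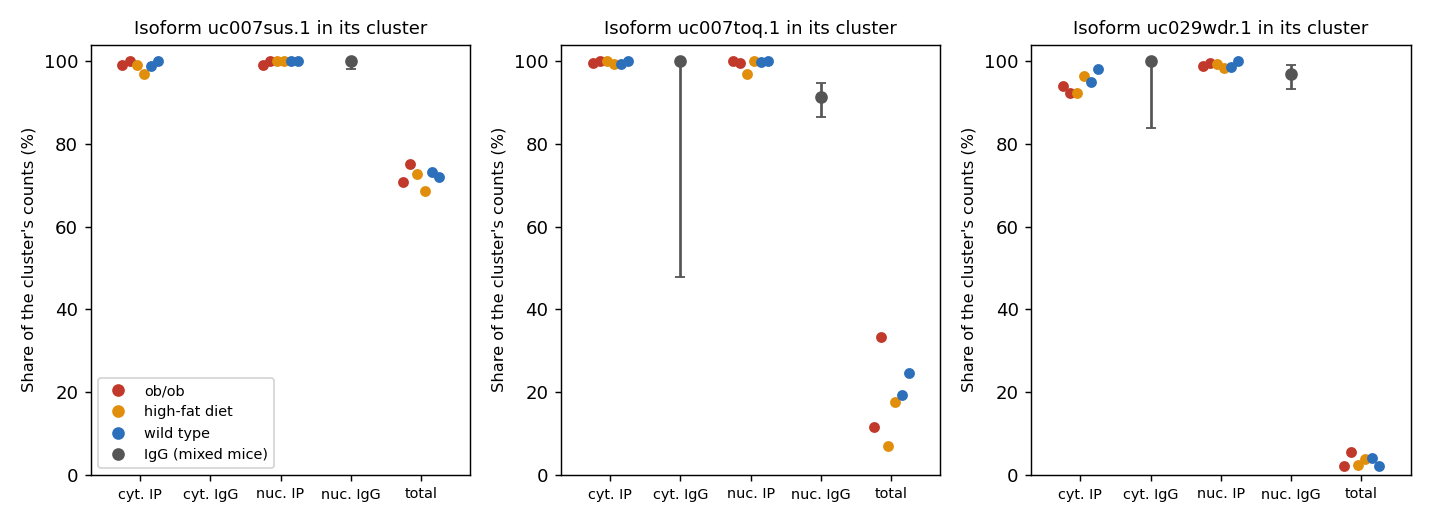
Share of the cluster's counts held by the named isoform (%) in each IP library, each IgG library and each unit of total RNA, for the 3 clusters with several isoforms. Bars on the IgG points are exact 95% intervals of a single library, and cytoplasmic IgG had 0 counts of uc007sus.1. IP and IgG points lie near 100% in all panels, while total RNA averages 72.0% in uc007sus.1, 18.9% in uc007toq.1 and 3.32% in uc029wdr.1.

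Across the whole table, 72.6% of isoform shares differed between cytoplasmic IP and total RNA and 76.9% between nuclear IP and total RNA, by a two-sided exact permutation test of 6 against 6 units with Benjamini-Hochberg adjustment over 38874 tests. Of the isoforms in the 3 clusters, 13 of 14 passed in each extract. The exception in both was uc007suu.1, a minor isoform of uc007sus.1. The leading isoform differed from that of total RNA in 47.3% of clusters in cytoplasmic IP and in 51.8% in nuclear IP, and in 2 of the 3 clusters in each, uc029wdr.1 and, by mean shares that overlap in total RNA, uc007toq.1. A sum that is raised through 1 isoform raises that isoform's share, so these shares are not independent of how the clusters were chosen.

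Differences between mouse groups within total RNA were not themselves used for the choice, but total RNA is the denominator of the folds that were. A change there between groups would also enter the spread of the folds. The counts below are therefore not independent of the choice. None of the 9 clusters passed edgeR's quasi-likelihood test at an adjusted p under 0.05 in any of the 3 comparisons. Between ob/ob and wild type 0.684% of 15487 clusters were higher and 0.891% lower, between high-fat and wild type none of the 15487 passed, and between ob/ob and high-fat 0.123% were higher and 0.368% lower. The number at an unadjusted p under 0.05 was 0 of the 9 and 4166 of all clusters between ob/ob and wild type, 1 and 1527 between high-fat and wild type, and 1 and 3393 between ob/ob and high-fat. DESeq2 called 0 of the 9 in each comparison, with 2101, 323 and 1433 calls over all clusters. Counts over all clusters moved with single units of total RNA: ob/ob against wild type had 244 calls, 0 without either ob/ob unit, 39 without either high-fat unit and 3222 without wild-type replicate 1, and none of the 9 was called in any of these fits. Without wild-type replicate 1 the other comparisons had 1170 calls (high-fat against wild type) and 1312 calls (ob/ob against high-fat), again with 0 of the 9. In bulk tissue, fewer cells of a type and less RNA per cell cannot be told apart in such levels.

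The log2 fold changes of the 9 in total RNA lay between -0.27 and 0.19 where ob/ob was set against wild type. They lay between -0.28 and 0.51 where high-fat was set against wild type, and between -0.60 and 0.33 where ob/ob was set against high-fat. The largest was that of uc008sss.1, which had 1.44 and 1.75 CPM in ob/ob and 2.37 and 2.51 CPM in high-fat units, against 1.68 and 1.80 CPM in wild-type units. High-fat units were the highest without overlap. Its log2 fold change was -0.60 with a standard error of 0.20 for ob/ob against high-fat (edgeR adjusted p = 0.17) and 0.51 with a standard error of 0.20 for high-fat against wild type (edgeR adjusted p = 0.49). For uc029wdr.1, with the lowest adjusted p for ob/ob against wild type (edgeR, 0.21), total RNA held 16.7 and 15.5 CPM in ob/ob and 17.6 and 16.9 CPM in high-fat units, against 18.1 and 19.4 CPM in wild-type units.

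Per length, the order of the clusters in total RNA was uc007oxu.1 at 108 to 127 TPM, uc029wdr.1 at 28.1 to 31.9 TPM, uc012cgd.2 at 15.8 to 19.8 TPM, uc009qai.1 at 5.66 to 7.21 TPM and uc008sss.1 at 2.12 to 3.40 TPM, with no overlap between these neighbours. Below them uc007qve.1 and uc009dtv.1 overlapped, as did uc009dtv.1 and uc007sus.1, and uc007sus.1 and uc007toq.1, down to 0.615 TPM. In cytoplasmic IP uc029wdr.1 at 209 to 316 TPM overlapped with uc007oxu.1 at 172 to 288 TPM, and uc009qai.1 at 93.9 to 133 TPM with uc012cgd.2 at 75.2 to 118 TPM. Next came uc008sss.1 at 21.9 to 45.7 TPM, overlapping with uc007toq.1 at 15.1 to 26.3 TPM, and uc007sus.1 at 4.81 to 14.9 TPM, overlapping with uc007qve.1 at 6.97 to 10.8 TPM. The lowest there was uc009dtv.1 at 0.86 to 4.50 TPM. In nuclear IP uc007oxu.1 led at 436 to 837 TPM, followed by uc029wdr.1 at 113 to 240 TPM, and uc007qve.1 was the lowest at 8.96 to 17.7 TPM. The remaining 6 lay between 18.9 and 90.7 TPM, each overlapping with its neighbours.

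Likeness to the 9 was measured as the root mean square distance, over the 12 IP libraries, from their median profile of log2 folds over total RNA. Among 10605 other clusters whose mean log2 CPM reached 1, the nearest were uc011wxw.1 at 0.35 and uc008puf.2 at 0.39, and 52 lay within a distance of 1. The members themselves lay at 0.23 (uc007qve.1) to 2.16 (uc007toq.1), so several clusters outside the list were closer to the median profile than most members. The log2 fold of uc011wxw.1 was 3.52 ± 0.29 in cytoplasmic IP and 3.51 ± 0.32 in nuclear IP, with 6.18 CPM in cytoplasmic IP, 6.00 CPM in nuclear IP and 0.508 CPM in total RNA. That of uc008puf.2 was 3.79 ± 0.19 in cytoplasmic IP and 4.07 ± 0.41 in nuclear IP. Their leading isoforms had 967 and 983 nucleotides, within the range of the 9. The nuclear IgG level was 2.17 CPM for uc011wxw.1 and 11.1 CPM for uc008puf.2, both below their mean nuclear IP levels of 6.00 and 19.6 CPM.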

How the data were processed

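RNA from hnRNPK and IgG precipitates and total RNA of mouse liver was sequenced in 26 libraries. The deposited tables give 1 row per transcript (59121) with expected counts, TPM and transcript length in nucleotides. Per the submitters' processing notes, RSEM 1.2.8, TopHat2 2.0.10, Bowtie2 2.1.0, SAMtools and bcl2fastq were used by the authors, on build mm10, with no role stated for each. The estimated counts of the authors (expected counts) were summed per gene number and rounded. TPM values deposited by the authors keep no depth and served only for order per length and as an alternative. Overlapping or antisense transcripts are uncertain, since no source used here names the strand of the libraries.

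Total RNA had 2 libraries per replicate number (25597307 to 41731910 counts each), which were summed, giving 18 units with IP libraries. That both came from 1 RNA is taken here and not stated by the labels. Spread between samples may be technical, and p-values cover nothing beyond it. The molecule label of the IgG libraries reads as bound to hnRNPK while the titles call them IgG, which was followed here.

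Tests used edgeR 4.0.16 (R 4.3.3, limma 3.58.1) with TMM, filterByExpr and Benjamini-Hochberg adjustment at 0.05, on 6 total RNA units or all 18 units. DESeq2 1.42.0 was an alternative. The standard error is the absolute log2 fold change over the square root of F. Log2 CPM had a prior count of 1. IgG levels have exact (Clopper-Pearson) 95% intervals and a floor of 3 counts. Isoforms with a mean share of at least 5% in IP or total RNA were tested. The edgeR and permutation steps were tested on simulated data. The 9 clusters and all lists were chosen with earlier results of these data known. All 9 are named, and beside them the 2 most alike clusters by distance of profile. Marker genes could not be analysed without symbols.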

Additional observations from a re-analysis of the deposited data

Results flagged for a closer look

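In 2 of 27 sets of 6 values, 1 value stood far from the rest by the ratio of its gap to the range, which chance gives in about 1 set in 20. The first was total RNA of uc007sus.1 in high-fat replicate 1, with a log2 CPM of 0.46 (prior count 1), the lowest of the 6 units. The same unit held 1.35 CPM, against 1.88 to 2.11 CPM in the others. The second was the cytoplasmic IP log2 fold of uc009qai.1 over total RNA in wild-type replicate 1, at 4.60, the lowest of 6 libraries. The other 5 lay between 4.95 and 5.12.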

How the results depend on the processing

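With scaling by library size only, the median log2 fold over total RNA of the 9 clusters was 3.05 in cytoplasmic IP and 3.26 in nuclear IP, and the median IgG excess was 1.03 (cytoplasm) and 0.24 (nucleus). On deposited TPM these medians were 3.11, 3.14, 1.34 and 0.18, and the nuclear minus cytoplasmic median was 0.89. The excess over IgG turned negative in cytoplasmic uc008sss.1 (-0.17 by library size, -0.27 on TPM) and cytoplasmic uc007oxu.1 (-0.10 on TPM), and in nuclear uc009dtv.1 (-0.20 by library size, -0.26 on TPM) and nuclear uc007oxu.1 (-0.14 by library size, -0.21 on TPM). Library size alone moved the median fold of all clusters by -0.58 in cytoplasmic IP and -0.44 in nuclear IP. It left 3 of 9 clusters above nuclear IgG in all libraries, and 1 of 9 with all nuclear below all cytoplasmic libraries. The first count was 5 without replicate 2 of the high-fat diet, beside 9.36% of all clusters. These 2 counts by library size, with and without that replicate, and the crossed numbers below were chosen after seeing the data. The cause of each change was not tested.

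With each total RNA library as its own replicate, 1 of 9 clusters (uc029wdr.1) passed between ob/ob and wild type, beside 5778 of 14564 clusters tested (39.7%). Testing only isoforms with a share of at least 20% left 10 tests in the member clusters, of which 10 passed. In the main setting 72.6% (cytoplasmic) and 76.9% (nuclear) of all isoform tests passed. For this setting and the isoform counts below no share over all clusters is given, so nothing is read from them. Leaving out 1 library at a time gave medians of 3.59 to 3.72 (cytoplasmic fold), 3.65 to 3.79 (nuclear fold), 0.50 to 0.61 (nuclear minus cytoplasmic), 1.67 to 1.72 (cytoplasmic excess) and 0.72 to 0.85 (nuclear excess). The counts were then 8 to 9 above cytoplasmic IgG, 8 above nuclear IgG, 4 to 5 with nuclear above cytoplasmic libraries, 3 with nuclear below, 24 to 26 isoforms, and 0 in each total RNA comparison.

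Replicate numbers are shared across groups. Deviations of same-numbered libraries correlated at 0.26 to 0.32 in ob/ob, -0.12 to 0.09 in high-fat and 0.35 to 0.41 in wild-type mice. Not every correlation was over 0.1, so the numbers were not taken as pairs. With the replicate block, 0 of 9 clusters passed in each total RNA comparison, with 63, 0 and 33 calls over all clusters against 244, 0 and 76 without it. Crossing the wild-type numbers gave 0 of 9 and 201 calls. Under exchange within numbers 20 of 28 isoform tests passed. Depth limits cytoplasmic IgG most, where 2 clusters had 0 counts.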
